A study of Mus musculus with 4 samples.

Results

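The genes described here are 10 cytokine and colony-stimulating factor genes that macrophages are known for: Tnf, Il1a, Il1b, Il6, Osm, Lif, Csf1, Csf3, Il10 and Il1rn. They were chosen by name, as every probe of the array whose transcript identifier mapped to one of these mouse symbols. This gave 12 probes, printed as 48 spots on each array, for 10 of the 20971 genes the array could be matched to. RAW 264.7, a macrophage-like mouse cell line of BALB/c origin, was left untreated or was treated with Lactobacillus bulgaricus, a lactic acid bacterium used in yoghurt, for 1, 4 or 6 h at a multiplicity of infection of 10 bacteria per cell. The RNA of 3 cultures was pooled in equal amounts for each of the 4 groups, and each pool was labelled with Cy5 and hybridised to 1 array. A reference made of RNA from all the groups was labelled with Cy3 on all 4 arrays, with no dye swap. All groups therefore share 1 cell line, the untreated cells are the only control, and with 1 array per group no test between groups was possible. The arrays lay on 1 slide, and their positions 1, 2, 3 and 4 followed the order of the times, so the position of an array cannot be told apart from its time.

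Tumour necrosis factor and the interleukin 1 proteins are alarm cytokines that macrophages make when they sense microbes, and they act largely by switching on the transcription factor NF-kB in the cells that receive them. Interleukin 6, oncostatin M and leukaemia inhibitory factor share the receptor chain gp130 and signal through STAT3, as does interleukin 10, which restrains macrophage activation. The colony-stimulating factors direct the growth of myeloid cells, Csf1 that of macrophages and Csf3 that of neutrophils, and Il1rn encodes a natural antagonist that occupies the interleukin 1 receptor without signalling.

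Promoter sequences were found for 7 of the 10 genes in RefSeq's annotation of GRCm38.p6, and 4 are shown because they set a pair of genes detected in the cells on every array, Tnf and Csf1, beside the neighbouring pair Il1a and Il1b, which was detected on none. Each line gives the 250 bases before the annotated start, 5′ to 3′ on the strand of the gene, all 4 on the minus strand. They lie at chr17:35202008-35202257 for Tnf, chr3:107760470-107760719 for Csf1, chr2:129309973-129310222 for Il1a and chr2:129371140-129371389 for Il1b. Capitals mark matches to TATAAA (the TATA box), TGANTCA (AP-1), TGACGTCA (the cyclic AMP response element) or GGGNNTTCC (NF-kB), searched on both strands. GGGNNTTCC is a short form of the NF-kB motif, and longer forms were not searched.
Tnf: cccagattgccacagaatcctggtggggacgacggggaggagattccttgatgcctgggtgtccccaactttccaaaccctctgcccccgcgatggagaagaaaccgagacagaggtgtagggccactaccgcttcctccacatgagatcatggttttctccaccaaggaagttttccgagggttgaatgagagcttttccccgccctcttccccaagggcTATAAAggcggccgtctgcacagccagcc
Csf1: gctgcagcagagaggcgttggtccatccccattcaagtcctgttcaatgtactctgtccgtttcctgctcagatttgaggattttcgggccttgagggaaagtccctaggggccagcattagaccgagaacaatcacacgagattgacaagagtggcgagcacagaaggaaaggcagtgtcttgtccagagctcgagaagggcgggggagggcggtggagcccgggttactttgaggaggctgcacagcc
Il1a: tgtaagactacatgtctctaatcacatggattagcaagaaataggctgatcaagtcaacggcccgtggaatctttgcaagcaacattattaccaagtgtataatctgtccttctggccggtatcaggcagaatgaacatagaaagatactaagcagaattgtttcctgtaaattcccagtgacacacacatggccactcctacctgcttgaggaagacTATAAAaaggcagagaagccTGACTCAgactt
Il1b: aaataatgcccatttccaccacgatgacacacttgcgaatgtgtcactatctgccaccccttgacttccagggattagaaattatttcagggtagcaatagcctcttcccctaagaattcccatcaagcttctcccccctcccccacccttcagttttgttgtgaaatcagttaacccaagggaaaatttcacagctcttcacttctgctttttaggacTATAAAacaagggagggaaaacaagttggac
The TATA box matched in Tnf at -29, in Il1a at -32 and in Il1b at -31, counted from the start site to the first base of the match. Of 32851 annotated promoter windows of the same length, 12.4% held TATAAA. The AP-1 motif TGANTCA matched in Il1a at -12 and was held by 6.7% of all windows. Neither TGACGTCA, held by 1.5%, nor GGGNNTTCC, held by 5.0%, matched in any of the 4, and Csf1 held none of the searched motifs. In these 4, no searched motif was held by both genes of a pair and by neither of the other. Among the promoters not shown, AP-1 matched in Il6 at -249 and in Lif at -228, both undetected on every array. It also matched in a window of Il1rn at -141, a gene detected in Cy5 on 3 arrays. These letters are matches and not measured sites.

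Signals are Agilent's processed signals, corrected for background and dye by the scanner software, in arbitrary units. A probe is called detected in a channel when over 50% of its spots that were not flagged as outliers were well above background. Across the arrays, 49.5% to 51.8% of spots were well above background in Cy5 and 43.5% to 45.4% in Cy3, and the share flagged as outliers was 1.55% to 1.84%. Among 228 probes printed as replicate spots and detected in both channels, the difference between 2 arrays read from single spots had an SD of 0.15 on the log2 ratio scale in each comparison with the untreated array. Of 9 macrophage markers on the array, 7 were detected in Cy5 on the untreated, 1 h and 4 h arrays and 6 at 6 h, with Csf1r at 22070 to 25154. The mannose receptor gene Mrc1 was not detected, and the only spot of Cd14 was flagged as an outlier on all 4 arrays. Markers of other cell types were detected too. The enterocyte and Paneth cell list had 10 of 10 members detected in Cy5 untreated and at 1 h and 9 at 4 and 6 h, and its summed Cy5 signal was 4025, 11874, 6226 and 6961 in the order untreated, 1, 4 and 6 h. Its summed Cy3 signal was 20754, 15844, 16991 and 16898, so the reference was above the cells of every group, although the labels describe it as a pool of these groups. The stromal and smooth muscle list had 7 of 8 detected on every array with Cy5 sums of 1635, 2795, 5137 and 4037, beside 4022, 4812, 4881 and 4127 in Cy3. The exocrine gland list had 4 of 6 with Cy5 sums of 501, 1574, 632 and 2932, beside 1942, 2153, 1927 and 1623 in Cy3. T cell markers were detected in Cy5 for 3 to 4 of 5 genes with sums of 448 to 536, neutrophil markers for 2 to 4 of 6 with sums of 201 to 267, B cell markers for 1 of 4 with sums of 74.6 to 101 and mast cell markers for 0 to 1 of 4 with sums of 23.2 to 36.5. The mast cell genes Cpa3 and Mcpt4 were at background in Cy5 on all 4 arrays. The part of these transcripts in the results below was not tested.

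Only 3 of the 10 genes, Tnf, Csf3 and Osm, were detected in both channels on all 4 arrays, and each was highest in Cy5 at a different time: Osm at 1 h, Tnf at 4 h and Csf3 at 6 h. In Cy5, which holds the cells of that array, 6 of the 10 were detected untreated and at 4 and 6 h, and 5 at 1 h. Csf1 and Il10 were dim but detected in Cy5 on every array, and Il1rn on all but the 1 h array. Il1a, Il1b, Il6 and Lif were detected in neither channel on any of the 4 arrays. For comparison, 56.0% to 57.7% of all genes were detected in Cy5. The order of these signals is not an order of transcript abundance, because each probe has its own response.

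**Figure D1:**
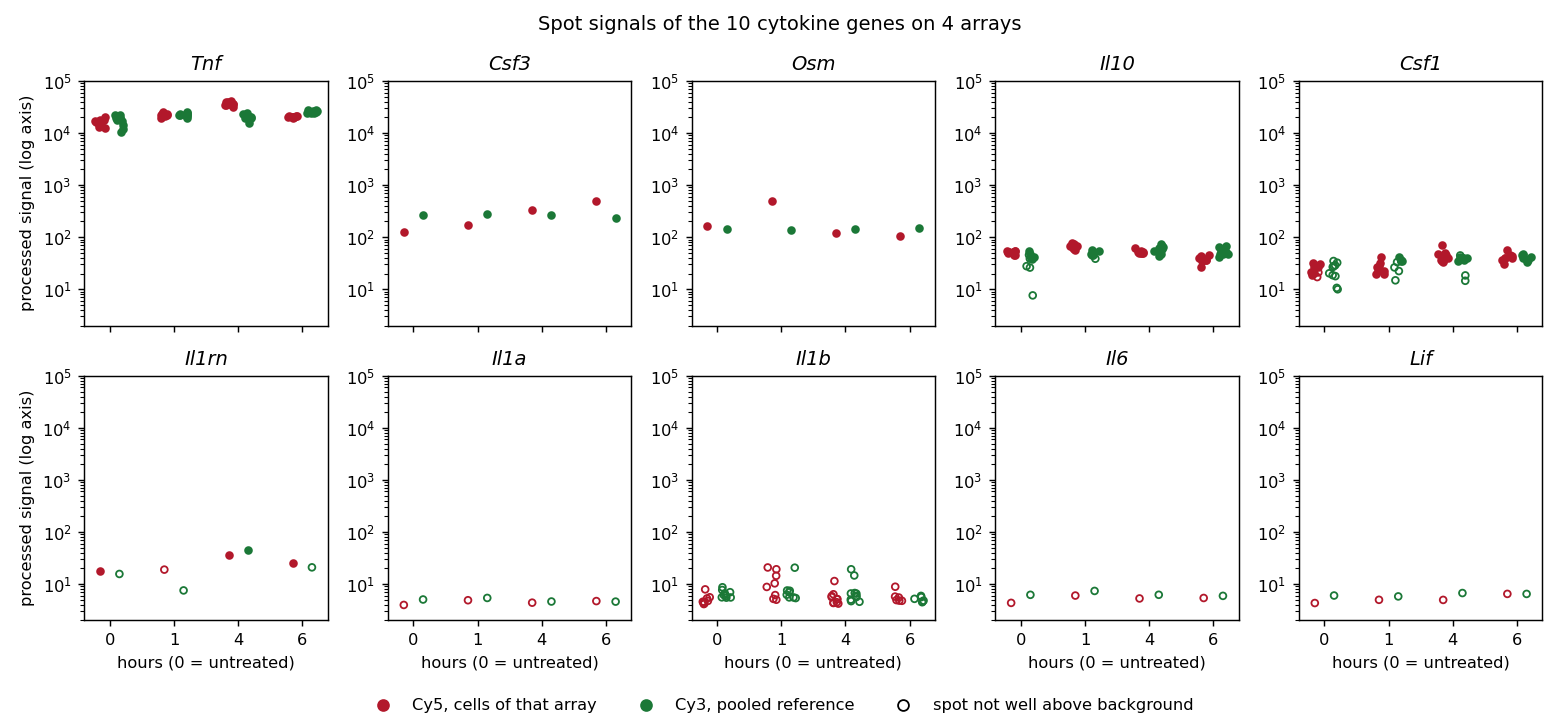
Processed signal of every kept spot (log axis) for the 10 genes on the untreated (0), 1, 4 and 6 h arrays, drawn at equal steps, with Cy5 (cells) in red, Cy3 (pooled reference) in green and open symbols for spots not well above background. Csf1 is shown by its probe of 10 spots. Tnf lies at 10465 or higher, Csf3 and Osm lie between 107 and 498, and Il1a, Il1b, Il6 and Lif have only open symbols.

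Tnf, the gene of tumour necrosis factor, was highest at 4 h. Its probe (A_51_P385099) was printed as 10 spots, of which 9 were kept at 6 h. The Cy5 signal was 16284 ± 2406 (SD of 10 spots, range 12260 to 20229) in untreated cells and 22558 ± 1456 (range 19624 to 25258) at 1 h. It was 36740 ± 2713 (range 31862 to 41447) at 4 h and 20460 ± 793 (9 spots, range 19133 to 21643) at 6 h. Every spot of the 4 h array was brighter in Cy5 than every spot of the other arrays. The spots measure 1 pool per array, so their SD is printing and scanning error and not the spread between cultures.

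The reference signal of Tnf was not constant, although the same RNA was hybridised in Cy3 each time. It was 17513 ± 4066 beside the untreated cells, 22725 ± 1572 beside 1 h, 20625 ± 2366 beside 4 h and 25872 ± 1367 beside 6 h (SD of 10, 10, 10 and 9 spots). The log2 ratio of Cy5 to Cy3, after background correction with an offset of 50 and loess normalization, was -0.09 ± 0.14 untreated, -0.06 ± 0.06 at 1 h, 0.86 ± 0.07 at 4 h and -0.33 ± 0.06 at 6 h (SD of the spots). The 4 h spots, from 0.79 to 1.00, lay apart from all others, and those at 6 h, from -0.41 to -0.21, overlapped the untreated ones, from -0.24 to 0.16.

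**Figure D2:**
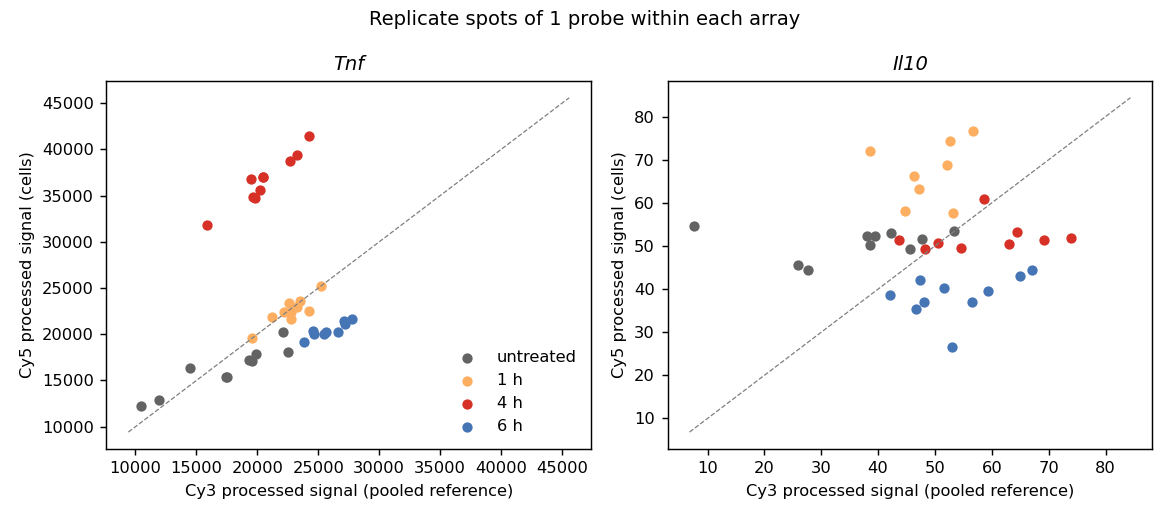
Cy5 against Cy3 processed signal of each kept replicate spot of the Tnf probe and the Il10 probe (10 spots per array before outlier flags), coloured by array, with a dashed line of equal signal. The Tnf spots at 4 h, at 31862 to 41447 in Cy5, form a separate group above the line, and those at 6 h lie below it.

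Against the untreated array the Tnf ratio differed by 0.03 at 1 h, 0.94 at 4 h and -0.24 at 6 h, each with a standard error of 0.05 from the spots. In processed signals the same differences were 0.07, 0.92 and -0.26. The 4 h difference, a ratio 1.92 times the untreated one, was the 32nd highest of 10337 measured genes, and the 190th in processed signals. From 4 to 6 h the Tnf ratio was lower by a difference of -1.19 (spot standard error 0.03), to 0.439 of its 4 h value, the 8th lowest of 10503 genes. Read from Cy5 alone, each array scaled to its 75th percentile, the differences from untreated were 0.42 at 1 h, 1.26 at 4 h and 0.45 at 6 h. The direction at 6 h thus depended on the scale, below untreated in the ratio and above it in Cy5 alone, where the scaled Cy3 signal of the reference also differed by 0.69. Before any correction the mean net Cy5 signal of Tnf was 15102 untreated, 17614 at 1 h, 26535 at 4 h and 12805 at 6 h. These net values were not scaled between arrays, so the lower 6 h value does not decide the direction. The 4 h signal was the highest on each of these scales. The summed stromal marker signal was likewise highest at 4 h, and its part in the Tnf difference was not tested.

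The genes on either side of Tnf on chromosome 17, Ltb and Lta, encode the lymphotoxins, relatives of tumour necrosis factor in the same ligand family. Ltb gave Cy5 signals of 13308 untreated, 14043 at 1 h, 15121 at 4 h and 15373 at 6 h, with ratio differences of -0.06, 0.11 and -0.09. Lta gave 331, 295, 226 and 204, with ratio differences of 0.01, -0.25 and -0.26. Neither reached at 4 h the 0.94 of Tnf.

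The interleukin 1 genes Il1a and Il1b encode the other alarm cytokines of the set, and neither was detected. The single Il1a spot (A_52_P100926) gave Cy5 signals of 3.96 untreated, 4.88 at 1 h, 4.38 at 4 h and 4.70 at 6 h. Spots not well above background had a median Cy5 signal of 4.87 to 6.00 on the 4 arrays, so Il1a sat at that level throughout. Il1b, with 10 spots of its probe (A_51_P212782), gave means of 5.03 ± 1.17 (9 spots kept), 11.2 ± 6.27 (8), 5.68 ± 2.14 (10) and 5.76 ± 1.57 (6) in the same order. At 1 h its spots ranged from 4.99 to 20.8, the highest of the series for this gene, yet 0 of the 8 was well above background. No fold is given for either gene.

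The gp130 cytokines Il6, Osm and Lif fell into 1 detected gene and a pair of undetected ones. Osm, the gene of oncostatin M, was highest at 1 h and back at or below its untreated signal by 4 h. Its single spot (A_51_P291361) gave Cy5 signals of 164 untreated, 491 at 1 h, 122 at 4 h and 107 at 6 h. The Cy3 signals of the reference were 146, 137, 143 and 148, so the reference was steady while the 1 h cells stood apart. The log2 ratio was 0.05, 0.76, -0.03 and -0.09 after offset and loess, and 0.17, 1.84, -0.23 and -0.47 in processed signals.

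The Osm difference from untreated at 1 h was 0.71 after offset and loess, with an error of 0.14 taken from replicate spots of other probes of like signal, and 1.67 in processed signals, with an error of 0.22. It ranked 75th highest of 10368 genes on the first scale and 33rd on the other. With an offset of 16 the difference was 0.83, with plain background subtraction 1.40 and with median centring in place of loess 1.28, and what sets the scales apart was not tested. Before any correction the net spot signal of Osm, spot median minus local background median, was 129 in Cy5 and 108 in Cy3 untreated, and 243 and 77.0 at 1 h. At 4 h the Osm difference from untreated was -0.09 and at 6 h -0.14, or -0.41 and -0.65 in processed signals. From 1 to 4 h the ratio was lower by a difference of -0.79, or -2.08 in processed signals. Osm rests on 1 spot, and the summed enterocyte and Paneth marker signal was also highest at 1 h. Their part in the Osm value was not tested.

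Il6 and Lif were at background. The Il6 spot (A_55_P1997756) gave 4.34, 6.00, 5.28 and 5.39 in Cy5 in the order untreated, 1, 4 and 6 h, and the Lif spot (A_66_P134488) gave 4.31, 4.97, 4.95 and 6.46. Lif is the next protein-coding gene to Osm on chromosome 11, so the peak of Osm at 1 h had no counterpart that could be measured in its neighbour. On the other side of Osm lies Castor1, which gave 200, 228, 199 and 344 in Cy5 and a ratio difference of 0.10 at 1 h.

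Of the colony-stimulating factors, Csf3 had a Cy5 signal that was higher at each later time, and Csf1 was dim. The single Csf3 spot (A_51_P317176) gave Cy5 signals of 128 untreated, 171 at 1 h, 334 at 4 h and 498 at 6 h. The reference gave 270, 280, 263 and 229 in Cy3. The cells were thus below the reference untreated and at 1 h and above it at 4 and 6 h.

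The Csf3 log2 ratio was -0.51, -0.27, 0.18 and 0.76 after offset and loess, and -1.07, -0.71, 0.35 and 1.12 in processed signals. Against untreated, it differed by 0.24 at 1 h, 0.70 at 4 h and 1.27 at 6 h on the first scale, with errors of 0.14 to 0.15 from replicate spots of other probes. In processed signals the differences were 0.37, 1.42 and 2.19, with errors of 0.22 to 0.23. The 1 h difference is therefore under 2 of its errors on either scale, and those at 4 and 6 h are more than 4. These errors hold printing and scanning error and not the spread between cultures, so such multiples are no test of the groups. The 6 h difference ranked 27th highest of 10309 genes. Successive steps were 0.46 from 1 to 4 h and 0.57 from 4 to 6 h, or 1.05 and 0.77 in processed signals. The summed exocrine marker signal was also highest at 6 h, and its part was not tested.

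**Figure D3:**
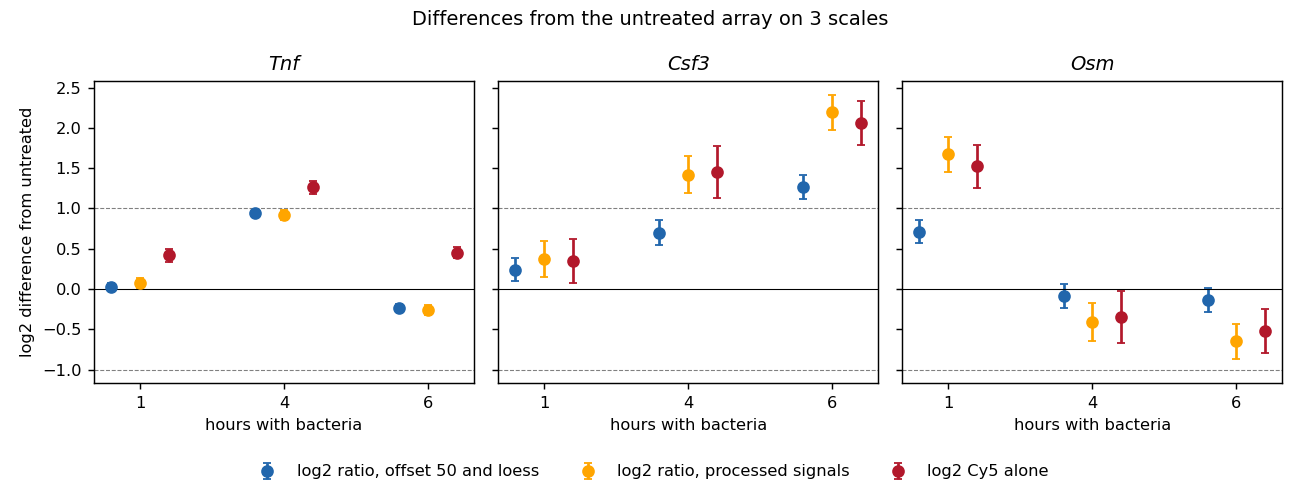
Log2 difference from the untreated array at 1, 4 and 6 h for Tnf, Csf3 and Osm on 3 scales. Error bars are the standard error from the replicate spots for Tnf and, for the single-spot probes of Csf3 and Osm, the SD of single-spot differences among replicate probes of like signal. Dashed lines mark differences of 1 and -1. Osm is highest at 1 h, Tnf at 4 h and Csf3 at 6 h, and Tnf at 6 h lies on opposite sides of 0 in the ratio and in Cy5 alone.

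Csf1, the macrophage growth factor gene, has 3 probes that did not agree in detection. The probe of 10 spots (A_51_P195506) gave Cy5 signals of 23.5 ± 4.82 untreated (10 spots, range 17.1 to 31.5), 26.6 ± 7.38 at 1 h (8 spots, range 19.9 to 41.7), 43.1 ± 11.5 at 4 h (10 spots, range 33.3 to 71.7) and 41.4 ± 7.86 at 6 h (8 spots, range 31.0 to 57.4). The 4 h spots did not overlap the untreated ones. On the scaled Cy5 signal the differences from untreated were 0.10 ± 0.16, 0.94 ± 0.14 and 0.93 ± 0.13 (standard error from the spots). The reference, detected in Cy3 only at 4 and 6 h, gave 34.7 and 40.6 there. With 0 of 10 Cy3 spots well above background beside the untreated cells and 3 of 8 beside 1 h, no ratio to those arrays is given, and whether the Cy5 differences exceed those of the reference cannot be measured. The only comparison measured in both channels, 6 h against 4 h, gave a log2 ratio difference of -0.04. The other probes (A_55_P2017914 and A_55_P2169669), with 1 spot each, had Cy5 signals of 4.86 to 7.92 and were detected on none of the arrays.

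The restraining genes were dim. Il10, the gene of interleukin 10, had a probe (A_51_P430766) of 10 spots that was well above background in Cy5 in every kept spot. Its Cy5 signal was 50.7 ± 3.38 untreated (10 spots, range 44.5 to 54.6), 67.1 ± 7.18 at 1 h (8 spots, range 57.6 to 76.7), 52.1 ± 3.49 at 4 h (9 spots, range 49.3 to 60.8) and 38.4 ± 5.01 at 6 h (10 spots, range 26.6 to 44.4). In Cy5, Il10 was highest at 1 h, without overlap with untreated, and lowest at 6 h. The scaled Cy5 differences from untreated were 0.33 ± 0.06, 0.11 ± 0.04 and -0.31 ± 0.07 (standard error from the spots). In Cy3, only 4 of 10 spots were well above background beside the untreated cells, so no ratio to that array is given. The scaled Cy3 reading differed from that array by 0.49 at 1 h, 0.87 at 4 h and 0.77 at 6 h. Whether the Cy5 differences from untreated exceed those of the reference therefore cannot be measured. The reference gave 48.9 ± 5.84, 58.5 ± 10.1 and 53.7 ± 8.19 on the arrays of 1, 4 and 6 h, where it was detected. Between times with both channels detected, the Il10 ratio differed by -0.13 from 1 to 4 h and by -0.10 from 4 to 6 h, or -0.61 and -0.33 in processed signals. Il19 and Il20, the next genes of the same cytokine family on chromosome 1, were not detected in Cy5 on any array.

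Il1rn, the gene of the interleukin 1 receptor antagonist, had 1 spot (A_55_P1962400) at the edge of detection. It gave Cy5 signals of 18.1 untreated, 18.9 at 1 h, 36.6 at 4 h and 25.7 at 6 h, all but the 1 h spot well above background. On the normalized Cy5 scale the 4 h reading was 1.10-fold the 1 h reading, which was not well above background. That scale carries the offset of 50, which shrinks the differences of dim spots, and there was no dye swap. In scaled processed signals the log2 difference between these arrays was 1.10 in Cy5 and 2.72 in Cy3, so no bound for the cells is given. The untreated and 1 h signals were nearly equal, and no fold is given between them. The reference gave 15.6, 7.53, 45.2 and 20.9 and was detected only beside the 4 h cells. The highest Cy5 and the highest Cy3 value fell on the same array, and Il1rn gave no ratio to the untreated array.

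A size rule, a log2 ratio difference of at least 1 in either direction against untreated, was met by 0 of the 3 measured genes at 1 h and at 4 h and by Csf3 at 6 h. Over all measured genes 0.328% were higher by the rule and 0.0482% lower at 1 h, 0.242% higher and 0.213% lower at 4 h, and 0.456% higher and 0.466% lower at 6 h. In processed signals the rule was met by Osm at 1 h, where 1.13% of all genes were higher and 0.405% lower, and by Csf3 at 4 h, where the shares were 1.39% and 0.958%. It was met by Csf3 again at 6 h, beside 2.22% higher and 1.89% lower. The measured genes had median differences of 0.24, 0.70 and -0.14 at 1, 4 and 6 h, beside 0.06, 0.00 and -0.01 over all genes. With 3 of 10 genes measured, these counts speak for those 3 and not for the whole set.

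Genes with the course most like each of the 3 were sought among 9786 measured genes with a given name, by the root mean square distance over the differences at 1, 4 and 6 h, which share the untreated array. For Tnf these were Ccl4, a chemokine gene (distance 0.18, differences of 0.06, 0.80 and 0.02), Trmt44 (0.18) and Neat1, a long noncoding RNA (0.23). Ccl4 gave Cy5 signals of 16245, 18044, 26188 and 16113 and Neat1 12967, 17971, 25723 and 16891, both highest at 4 h, while Trmt44, at 183, 229, 163 and 154, was not. For Csf3 they were Cxcl10, a chemokine gene induced by interferons (0.09, with differences of 0.24, 0.72 and 1.11), the stress gene Gadd45b (0.12) and Ddit4, an inhibitor of mTOR signalling (0.14). All of these gave their highest Cy5 signal at 6 h, from 301 untreated to 560 for Cxcl10, 1990 to 4716 for Gadd45b and 944 to 3064 for Ddit4. For Osm they were Chtf8 (0.03), Wdr4 (0.05) and Ambra1 (0.07). Their Cy5 signals at 1 h did not stand out as that of Osm did: Chtf8 gave 8884 untreated and 9280 at 1 h, and Ambra1 1033 and 959.

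Other cytokines were mostly level in the ratio. Of 31 on the array, 14 were measured in both channels, and 0 were past the rule at 1 and 4 h and 1 was lower at 6 h. That gene, Ebi3, which encodes a subunit shared by interleukins 27 and 35, had ratio differences of -0.38, -0.95 and -1.15, with Cy5 signals of 9277, 17753, 15844 and 15621. Its Cy3 signals, from the reference, were 5884, 13415, 19232 and 20299, so both channels were higher on the later arrays and the cells cannot be read from Cy5 alone. Vegfa, the vascular growth factor gene, resembled Osm in being highest at 1 h, with differences of 0.52, -0.19 and -0.28 and Cy5 signals of 1649, 2530, 1547 and 1318. Pdgfb, a platelet-derived growth factor gene, differed by 0.29, 0.42 and -0.03, and Il34, which encodes the other ligand of the Csf1 receptor, by -0.04, -0.43 and -0.44. Csf2, the granulocyte-macrophage factor gene, and Ifnb1, the interferon beta gene, were not detected in Cy5 on any array. The median difference of these cytokines was 0.04, -0.09 and -0.07.

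Receptors of the 10 cytokines gave 0 past the rule at any time, of 9 measured at 1 and 6 h and 8 at 4 h. Il6ra, the ligand-binding chain for interleukin 6, differed by -0.03, -0.46 and -0.83, with Cy5 signals of 1971, 1577, 1319 and 802 that were lower at each time. Il10rb, a chain of the interleukin 10 receptor, differed by 0.23, 0.55 and 0.17, and Tnfrsf1b, the second receptor of tumour necrosis factor, by 0.08, 0.51 and -0.03. Both had, as Tnf did, their largest difference at 4 h. Csf3r, the receptor gene for Csf3, differed by 0.00 at 1 h and -0.39 at 6 h. Osmr, Lifr, Il1r1 and Il1r2, receptor genes for oncostatin M, leukaemia inhibitory factor and interleukin 1, were not detected in Cy5 on any array, whereas Il6st, which encodes gp130, gave 978, 1066, 1053 and 882.

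Signal transducers, from the adaptor Myd88 to the kinases and STAT factors, gave 0 of 21 measured genes past the rule at any time, with differences from -0.40 to 0.33. The largest were those of Traf6 (-0.40 at 6 h), Stat5a (0.33 at 4 h), Ripk1 (-0.32 at 6 h) and Grb2 (0.31 at 4 h). In Cy5 alone the sign turned for Traf6 (0.06), for Ripk1 (0.05) and for Stat5a, whose Cy5 signal was 409 untreated and 194 at 4 h, and Grb2 differed by 0.04. Genes for processing and release, such as the proteases that shed tumour necrosis factor and the caspases that mature interleukin 1, gave 0 of 12. Pycard, an inflammasome adaptor gene, differed by 0.28, 0.27 and 0.45, Capn1 by 0.04, 0.02 and 0.38, and Casp4 by 0.23, 0.23 and 0.33. Adam10, a protease gene, differed by 0.41, 0.21 and 0.30 in the ratio but by -1.20, -1.83 and -2.19 in Cy5 alone, with signals of 2035, 925, 542 and 416 in Cy5 and 2854, 1121, 712 and 450 in Cy3.

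Genes known as NF-kB targets of tumour necrosis factor and interleukin 1 had median differences of 0.17, 0.48 and 0.46. Of 10 measured at 1 h 0 were past the rule, of 10 at 4 h 1 was higher, and of 9 at 6 h 2 were higher. In processed signals the counts were 1, 2 and 4. Cxcl2, a chemokine gene, differed by 0.63, 1.02 and 1.58 with Cy5 signals of 324, 516, 764 and 1198, so that like Csf3 it was higher at each time. Ptgs2, which encodes cyclooxygenase 2, differed by 0.64, 0.44 and 1.05 with Cy5 signals of 91.0, 178, 144 and 215. STAT3 targets had medians of 0.22, 0.27 and 0.04. Pim1, a kinase gene, was past the rule at 6 h, 1 of 7 measured, with differences of 0.37, 0.57 and 1.10 and Cy5 signals of 325, 438, 582 and 927. None of 6 measured was past it at 1 or 4 h. These lists were drawn up with results of these data known, and their medians stand beside 0.06, 0.00 and -0.01 over all genes.

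**Figure D4:**
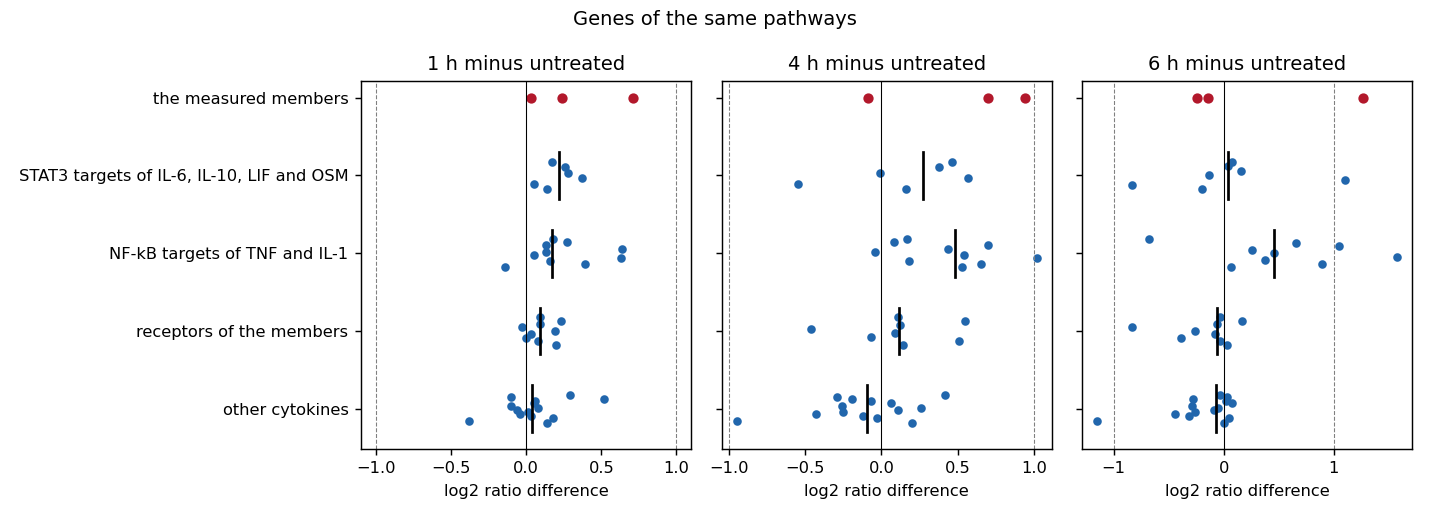
Log2 ratio difference from the untreated array at 1, 4 and 6 h for each measured gene of 4 lists (blue points, vertical bar at the list's median) and for the measured genes Tnf, Csf3 and Osm (red), with dashed lines at -1 and 1. At 6 h the genes past 1 are Csf3, Pim1, Cxcl2 and Ptgs2, and Ebi3 lies below -1.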

How the data were processed

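Expression was measured on 4 Agilent 2-colour arrays, 1 per group, with the cells in Cy5 and the common reference in Cy3. Per the file headers and the submitters' processing notes, Agilent Feature Extraction 10.5.1.1 produced the deposited intensities and processed signals, and the deposited table of log10 ratios matched the scanner files within 0.0050. Its direction, Cy5 over Cy3, follows from that match.

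From the deposited intensities (spot and local background medians), limma 3.58.1 in R 4.3.3 computed log2 ratios with normexp background correction (offset 50) and loess within arrays; control and outlier spots had weight 0. Levels are processed signals. A gene was measured in a comparison when detected in both channels on both arrays, and probes of a gene were averaged. Identifiers of 27655 of 39429 probes matched 20971 genes of RefSeq GRCm38.p6. The array's own annotation names build mm9, so no probe position is given. Differences were called at a size of 1 without a test. The steps were tested on simulated data. Precision is limited by the number of arrays. Pooling 3 cultures leaves no spread between cultures.

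The 10 genes and all lists were chosen with earlier results of these data known. All probes of the 10 genes are reported; from each list, genes past the rule or up to 4 with the largest difference at any time were to be named, and beside each of Tnf, Csf3 and Osm the 3 genes nearest in course. Lta, Ltb, Castor1, Il19, Il20, the undetected genes, Csf1r, Il6st and Myd88 were named after their values were seen.

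The alternatives were an offset of 16, plain subtraction, median centring, Aquantile, processed signals, the deposited ratios, Cy5 alone, 3 other filters, the brightest probe and a rule of 1.5-fold.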

Additional observations from a re-analysis of the deposited data

Results flagged for a closer look

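The Tnf log2 ratio difference from untreated was 0.94 at 4 h and -0.24 at 6 h. The replicate spots of the 4 h array lay above the mean untreated value and those of the 6 h array below it. The 6 h spots overlapped the untreated spots, and the 4 h spots did not. The difference between these times was not tested, as each is 1 array. In the scaled processed Cy5 signal alone both times were above untreated, by 1.26 and 0.45. The net Cy5 signal before any correction, not scaled between arrays, was 15102 untreated, 26535 at 4 h and 12805 at 6 h.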

How the results depend on the processing

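Counts past the rule differed between settings. The offset of 50 shrinks the ratio differences of dim spots, and its part in these counts was not tested. At 1 h the count of the 3 measured cytokine genes past the rule was 0, and it was 1 with plain subtraction, processed signals, the deposited ratios, Cy5 alone or a 1.5-fold rule, and 2 with median centring. At 4 h it was 0, and 1 with plain subtraction, processed signals or the deposited ratios and 2 with Cy5 alone or a 1.5-fold rule. At 6 h it was 1 under all these settings. Over all genes the counts at 1, 4 and 6 h were 39, 47 and 95. They were 84, 108 and 238 with plain subtraction, 159, 243 and 424 with processed signals, 159, 244 and 424 with the deposited ratios, 256, 497 and 979 with Cy5 alone, and 183, 284 and 558 with a 1.5-fold rule. Median centring gave 3030 at 1 h and 151 at 6 h, and moved the median of all genes to 0.86 at 1 h and -0.15 at 6 h. Relative to that median, Tnf differed by 0.30, Csf3 by -0.06 and Osm by 0.42 at 1 h. Cy5 alone moved the median to 0.14 at 4 h and 0.15 at 6 h. Over 11 alternatives, Csf3 at 6 h ranged from 1.25 to 2.19 and was past the rule in all 11. Tnf at 4 h ranged from 0.91 to 1.26 and was past it in 1. Csf3 at 4 h ranged from 0.70 to 1.45 and was past it in 4, and Osm at 1 h from 0.71 to 1.67 and past it in 5. Median centring, which moved all genes at 1 h, was among those 5. Several of the 11 could not change these values. Aquantile leaves the ratios of an array as they are. The detection filters and the brightest probe cannot change a measured gene of 1 probe, as Tnf, Csf3 and Osm are. Keeping outlier spots left Csf3 and Osm, each 1 spot, at the main value in these comparisons. The deposited ratios repeated the processed signals, so the 11 are not separate checks. Tnf at 6 h ranged from -0.35 to 0.45, with the sign turned in Cy5 alone. Alternatives for successive times were chosen after seeing the data: Tnf from 4 to 6 h ranged from -1.26 to -0.81, and from 1 to 4 h was 0.92 but -0.25 with median centring, where all genes had a median of -0.83. With 1 array per group no array could be left out. No paired analysis was possible because each group has 1 array.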
